A study of Neurospora crassa with 12 samples.

Results

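One hour after HSAF was added, the mycelium of Neurospora crassa differed from untreated mycelium in genes for chitin synthesis, wall proteins, amino acid synthesis and nitrogen use, and in a set of very strongly induced genes without a symbol. The comparison described here sets the libraries treated for 60 min (HSAF-60, libraries J, K and L) against the untreated ones (HSAF-0, libraries A, B and C). It takes 6 of the 12 libraries of the series, chosen by their labels. The table lists 11409 features. Of these, the 9729 with an NCU identifier are annotated genes, and 7582 passed a filter on low counts and were tested. HSAF-60 was mycelium of the wild-type strain FGSC2489 kept for 60 min with 40 µM HSAF, and HSAF-0 was mycelium of the same strain without HSAF. The other libraries of the time course were taken at 5 min (HSAF-5) and 30 min (HSAF-30), with 3 libraries at each time. The labels and the study's methods give different culture ages and temperatures before treatment. Untreated mycelium was sampled at the start alone, so HSAF and the passing of 60 min with the handling of the culture cannot be told apart. The labels give the libraries letters and no replicate numbers and do not mention separate cultures, while the paper refers to the libraries of a time point as biological replicates. The p-values measure the spread between these libraries.

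HSAF, the heat-stable antifungal factor, is a macrolactam made by the bacterium Lysobacter enzymogenes that halts the growth of filamentous fungi. A hypha grows at its tip, where chitin synthases and glucan synthases build new wall and secretory vesicles deliver membrane and enzymes, and a proton pump in the plasma membrane drives the uptake of nutrients. Fungi that meet wall damage or a shortage of nutrients commonly change genes of wall synthesis, of nitrogen use and of amino acid synthesis, which in Neurospora stand in part under cross-pathway control by cpc-1.

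Total counts were 12066118 to 15698448 in HSAF-60 and 11822743 to 13886954 in HSAF-0. Counts on NCU genes were 4025770 to 11265740 in HSAF-60 and 2586940 to 8877132 in HSAF-0, and 2 features that are not NCU genes took 25.2% to 66.1% of the counts in HSAF-60 and 34.9% to 80.4% in HSAF-0. Distances between libraries on log2 CPM (CPM is the count per 1e6 NCU counts, scaled by edgeR's TMM factors) were 54.2 to 73.1 within HSAF-60, 47.2 to 64.1 within HSAF-0 and 95.5 to 142 between them. Library J lay nearest to HSAF-0, and of the 711 genes called higher in HSAF-60 it had the lowest HSAF-60 level in 603. Of the 268 genes called lower it had the highest HSAF-60 level in 178. Over all 7582 tested genes J was the lowest HSAF-60 library in 2997. Without J, 1093 genes were called, 786 higher and 307 lower. Values are listed in the order J, K, L for HSAF-60 and A, B, C for HSAF-0, and fitted log2 fold changes carry ± 1 standard error.

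A gene was called where edgeR's quasi-likelihood test, fitted to all 12 libraries, gave a Benjamini-Hochberg adjusted p below 0.01 over all tested genes together with a change of 2-fold or more. By this rule 979 of the 7582 genes (12.9%) were called between HSAF-60 and HSAF-0, 711 of them higher (9.38% of those tested) and 268 lower (3.53%). More increases than decreases were large. At least 4-fold higher were 497 genes, and 142 were at least 16-fold higher, against 126 at least 4-fold lower and 13 at least 16-fold lower. The median log2 fold change was 2.52 over the genes called higher, -1.97 over those called lower and 0.0020 over all tested genes. The HSAF-60 libraries lay all above or all below the HSAF-0 libraries in 3920 genes (51.7%), and in 978 of the 979 called. Higher genes made up 72.6% of the calls under TMM. Upper quartile scaling made this share 58.0% and set the median of all tested genes to -0.14, and scaling by library size made it 78.8% and set that median to 0.15. Leaving out 1 library changed the counts by more than 1.5 times in several cases. The fit called 575 genes without A, 578 without B, 508 without C, 572 without K and 527 without L. Of the 102 called genes that are named by a fixed rule, 10 lost their call without J, 37 to 39 without A, B, C or K and 48 without L, and 0 changed direction against HSAF-0 under any setting tried.

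**Figure D1:**
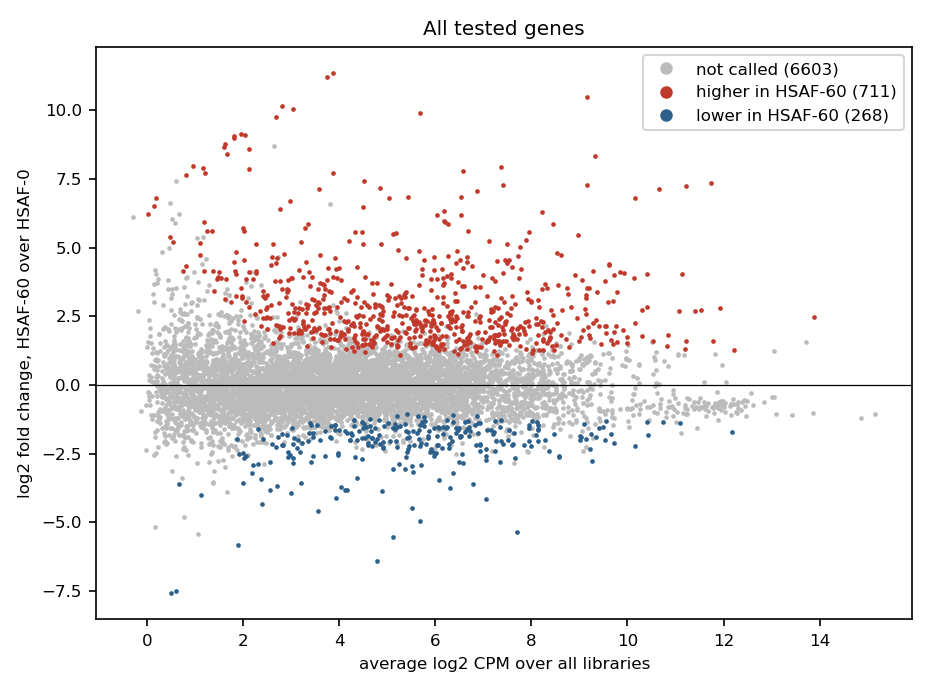
Each point is 1 of the 7582 tested genes, with its average log2 CPM over all libraries on the x axis and its log2 fold change of HSAF-60 over HSAF-0 on the y axis. The 711 genes called higher (red) reach farther from 0 than the 268 called lower (blue), and genes not called are grey.

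The 10 largest increases all fell on genes without a symbol. They were taken among called genes that averaged 5 or more in log2 CPM and whose HSAF-60 and HSAF-0 libraries did not overlap. That their groups lie apart was thus required by the rule. NCU00868 had 2651, 12769 and 21159.7 CPM in HSAF-60, against 39.9, 66.6 and 117 CPM in HSAF-0. Every HSAF-60 library lay far above every HSAF-0 library, although J stood well below K and L (log2 fold change 7.35 ± 1.01, adjusted p = 7.65e-05). On the TPM scale, which corrects for gene length and sums over the NCU genes, NCU00868 ranked 4 in HSAF-60, at 13329.6 ± 9463 TPM, and 1223 in HSAF-0, at 75.2 ± 32.9 TPM (SD, n = 3 each). NCU00865 had 1426, 3993 and 7787 CPM in HSAF-60, against 36.7, 29.5 and 28.6 CPM in HSAF-0. Its groups did not overlap either (log2 fold change 7.13 ± 0.62, adjusted p = 1.10e-06). NCU02084, which carries the annotation agmatinase activity, had 3071, 8108 and 7652 CPM in HSAF-60, against 30.9, 44.6 and 49.0 CPM in HSAF-0. Enzymes of this family split urea from arginine or from its decarboxylated form. All treated libraries lay far above all untreated ones (log2 fold change 7.24 ± 0.66, adjusted p = 1.78e-06), and NCU02084 ranked 8 in TPM in HSAF-60 and 1549 in HSAF-0. NCU06400, annotated as a hydrolase, had 906, 2484 and 3319.6 CPM in HSAF-60, against 15.8, 14.8 and 13.1 CPM in HSAF-0. Its groups were apart (log2 fold change 7.27 ± 0.81, adjusted p = 1.14e-05), and it was not called against HSAF-0 at 5 or 30 min. NCU02700, NCU16729, NCU16445 and NCU04641 had log2 fold changes of 8.35, 7.94, 7.79 and 7.30. In each of these the treated libraries lay above the untreated ones. The largest fitted changes of the rule's 10 genes were in NCU00855 (468, 1616 and 3366 CPM in HSAF-60, against 0.643, 1.25 and 1.54 CPM in HSAF-0) and in NCU06792, which had 3 counts in all in HSAF-0 and 4608 in HSAF-60.

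**Figure D2:**
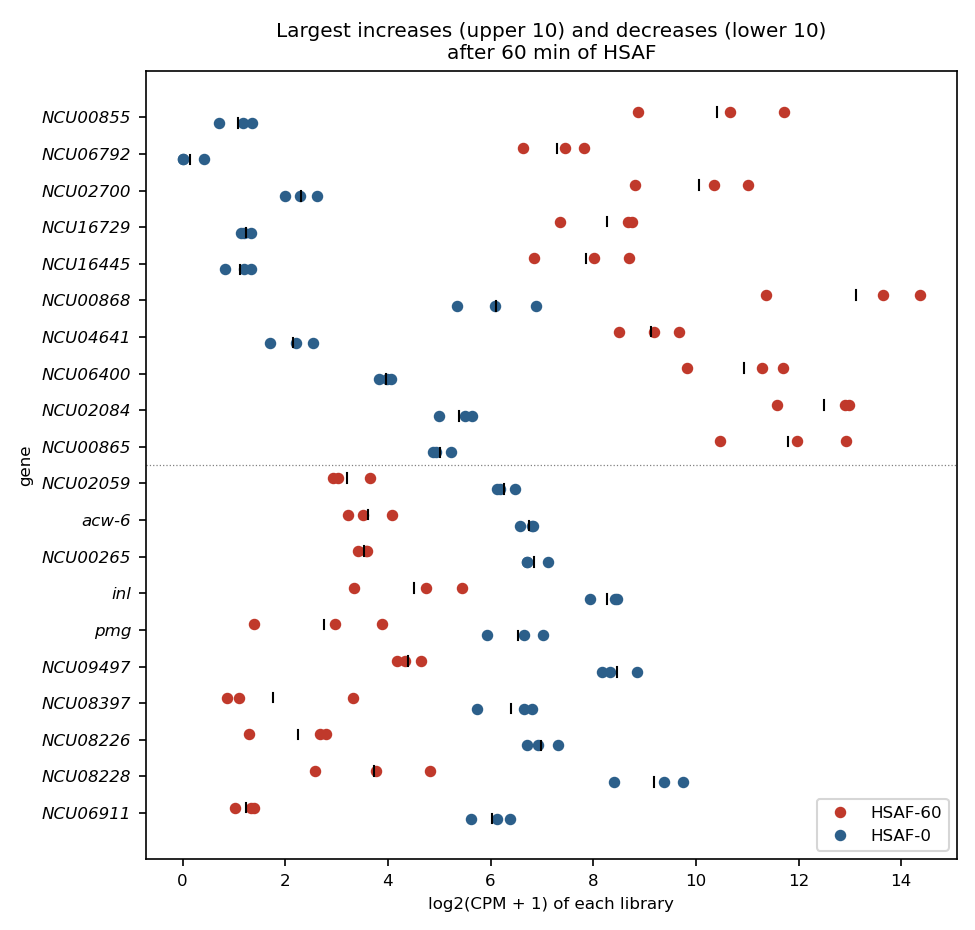
The x axis gives log2(CPM + 1) in each library for the 10 largest increases (above the dotted line) and the 10 largest decreases (below it), with HSAF-60 in red above HSAF-0 in blue and a short black line at each group's mean. The groups of each gene do not overlap, which the rule for choosing the genes required.

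A further 23 genes called higher had no count at all in the 3 HSAF-0 libraries, so their folds are lower bounds against a floor of 3 counts over that group. One of them is set-7, the methyltransferase that places the repressive methyl mark on lysine of histone H3 in Neurospora. It had 77, 98 and 413 counts in HSAF-60, against 0, 0 and 0 counts in HSAF-0, at least 127-fold higher. Library L held 413 of its 588 counts, and without L, a setting added after the values were seen, the bound was 57.8-fold. Of the list of RNA silencing and chromatin genes it was the 1 of 34 tested members called (2.94%, against 12.9% of all tested genes). NCU01011 was at least 328-fold higher and NCU09072 at least 265-fold, both with most of their counts in library L (1328 of 1523 and 798 of 1231), and without L these bounds were 64.4-fold and 143-fold. These 2 genes were chosen after their values were seen.

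The 10 largest decreases were taken by the same rule, which required that the groups did not overlap. Those with a symbol were inl, pmg and acw-6. The gene inl, which encodes the synthase that makes inositol phosphate from glucose phosphate, had 42.4, 25.8 and 9.11 CPM in HSAF-60, against 343, 243 and 354 CPM in HSAF-0. No HSAF-60 library reached the untreated range (log2 fold change -3.60 ± 0.59, adjusted p = 3.66e-04). The general amino acid permease gene pmg had 6.83, 13.7 and 1.63 CPM in HSAF-60, against 128, 99.0 and 60.1 CPM in HSAF-0. It was lowest in library L and again without overlap (log2 fold change -3.74 ± 0.71, adjusted p = 0.00116). NCU08226, annotated as an integral membrane protein, had 5.40, 5.93 and 1.44 CPM in HSAF-60, against 104, 121 and 159 CPM in HSAF-0 (log2 fold change -4.93 ± 0.63, adjusted p = 4.36e-05). It is part of a run of 3 adjacent genes called lower, NCU08226 to NCU08228, and NCU08228 itself had a log2 fold change of -5.36. NCU06911 had 1.5, 1.02 and 1.63 CPM in HSAF-60, against 47.9, 68.5 and 82.0 CPM in HSAF-0, a log2 fold change of -5.52. The other genes of the rule, NCU08397, NCU09497, NCU00265 and NCU02059, had log2 fold changes of -4.47, -4.15, -3.45 and -3.16, and acw-6 is described with the wall proteins.

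Chitin synthesis genes were higher at 60 min. Of 6 tested members of the list 4 rose and 0 fell, where 12.9% of all tested genes were called, and the median log2 fold change was 1.5 against 0.0020 over all tested genes. The chitin synthase gene chs-3 had 131, 210.3 and 243 CPM in HSAF-60, against 23.5, 24 and 23.5 CPM in HSAF-0. Its lowest treated library was more than 5 times its highest untreated one (log2 fold change 3.04 ± 0.32, adjusted p = 6.48e-06). Another chitin synthase gene, chs-1, had 339.6, 535 and 551 CPM in HSAF-60, against 138, 119.8 and 149.7 CPM in HSAF-0 (log2 fold change 1.81 ± 0.29, adjusted p = 3.34e-04), and chs-4 had 119.7, 179.9 and 190.1 CPM in HSAF-60, against 55.6, 56.1 and 64.4 CPM in HSAF-0 (log2 fold change 1.47 ± 0.29, adjusted p = 0.00147). The gene gfa1, for the amidotransferase that opens the path to the chitin precursor, had 649, 739 and 849 CPM in HSAF-60, against 232, 259 and 286 CPM in HSAF-0 (log2 fold change 1.53 ± 0.30, adjusted p = 0.00162). In all 4 the groups were apart. The remaining members, named here after their values were seen, did not pass, chs-6 and chs-5 with log2 fold changes of 0.58 and 0.44. The count was 4 without library J, and chs-4 and gfa1 lost their calls without A or without L, which left 2. NCU02592, named chs-9 in the study and annotated as a chitin synthase activator, had 15.5, 28.8 and 17.2 CPM in HSAF-60, against 25.1, 16.0 and 11.9 CPM in HSAF-0. Its groups overlapped (log2 fold change 0.22 ± 0.48, adjusted p = 0.773).

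Of 9 chitin-degrading genes 1 rose and 1 fell, 22.2% of the list against 12.9% of all tested genes, with a median of 0.0057. The chitinase gene gh18-5 had 206, 411 and 481 CPM in HSAF-60, against 19.0, 26.5 and 19.3 CPM in HSAF-0 (log2 fold change 4.08 ± 0.38, adjusted p = 1.89e-06), and the chitinase gene chit-1 had 12.2, 14.7 and 11 CPM in HSAF-60, against 119, 108 and 64.4 CPM in HSAF-0 (log2 fold change -2.95 ± 0.61, adjusted p = 0.00216). Each was without overlap, in opposite directions. Of 23 genes for glucan synthesis and remodelling 2 rose and 0 fell (8.70%), with a median of 0.46. They were gh76-3, of a mannan-cutting family that in yeast helps to bind proteins into the wall, with a log2 fold change of 2.77, and the glucanosyltransferase gene gel-4 with 1.61. The glucanase gene NCU05686 (gh16-5) had 220.1, 269.8 and 199 CPM in HSAF-60, against 118, 106 and 74.3 CPM in HSAF-0, a difference without overlap that did not pass by edgeR over the 12 libraries (log2 fold change 1.21 ± 0.40, adjusted p = 0.0348). It was called by DESeq2 and by the edgeR fit to these 2 groups alone. Wall proteins split. Of 18 members 3 rose and 2 fell, 27.8% of the list against 12.9% of all tested genes, with a median of -0.12. The non-anchored wall protein gene ncw-5 had 2579, 3217 and 3716 CPM in HSAF-60, against 239.5, 323 and 84.6 CPM in HSAF-0. The groups were far apart (log2 fold change 3.88 ± 0.51, adjusted p = 5.01e-05). The anchored wall protein gene acw-4 had 2352, 2146 and 2202 CPM in HSAF-60, against 271, 461 and 298 CPM in HSAF-0 (log2 fold change 2.70 ± 0.34, adjusted p = 3.41e-05), and ncw-6 had a log2 fold change of 2.57. Lower were acw-6, with 15.9, 10.4 and 8.34 CPM in HSAF-60, against 94.5, 112 and 112 CPM in HSAF-0 (log2 fold change -3.19 ± 0.70, adjusted p = 0.00347), and acw-10, annotated with superoxide dismutase activity, with a log2 fold change of -1.83. Calls that did not survive the loss of 1 library were chit-1 (without B or L), gel-4 (without A, C, J, K or L), ncw-6 (without A) and acw-6 (without C, K or L), while gh18-5, gh76-3, ncw-5, acw-4 and acw-10 kept theirs. Of the 23 tested genes of the wall integrity, pheromone-type and osmotic MAP kinase pathways, which carry wall and osmotic signals, edgeR called 0, with 5 at an unadjusted p under 0.05, and DESeq2 called 1 higher and 1 lower. The median of the 23 was -0.33, with 15 below 0 and 8 above. The largest change was in ham-7, with 3.96, 4.70 and 6.71 CPM in HSAF-60, against 12.2, 14.5 and 11.4 CPM in HSAF-0 (log2 fold change -1.30 ± 0.38, adjusted p = 0.0202). In the other direction, rrg-1, the response regulator upstream of the osmotic kinases, had 18.2, 32.3 and 34.8 CPM in HSAF-60, against 12.5, 12.3 and 14.6 CPM in HSAF-0 (log2 fold change 1.11 ± 0.33, adjusted p = 0.0211).

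**Figure D3:**
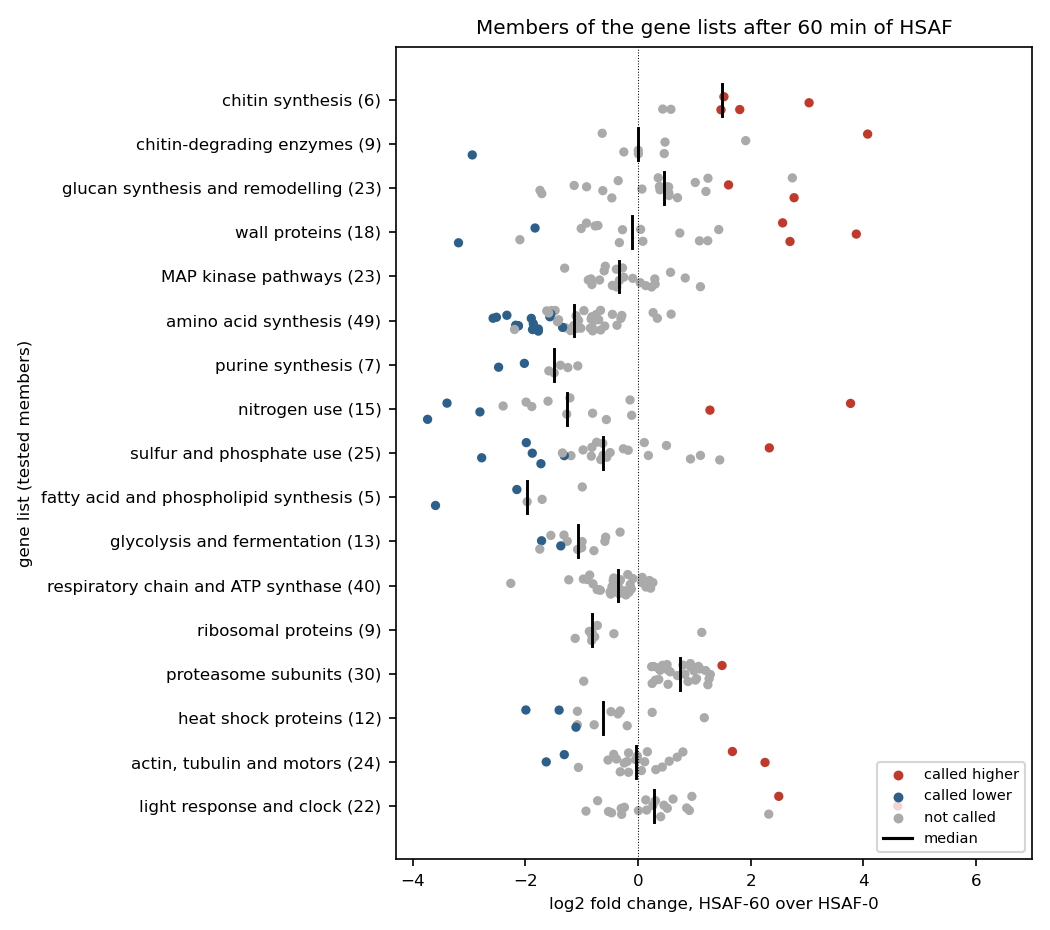
Each point is a tested member of a gene list (rows, number of members in parentheses), placed by its log2 fold change of HSAF-60 over HSAF-0, with called genes in red (higher) or blue (lower) and the median as a black line. Chitin synthesis lies to the right with a median of 1.5, amino acid synthesis to the left with -1.14, and the 30 proteasome genes lie mostly above 0, with a median of 0.75 and 1 call.

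Genes of amino acid synthesis were lower. Of 49 tested members 14 fell and 0 rose, 28.6% of the list against 3.53% of all tested genes called lower. The median was -1.14, and 46 of 49 had a log2 fold change below 0. In 43 members all 3 HSAF-60 libraries lay below all 3 HSAF-0 libraries, and in 0 members above, where 51.7% of all tested genes had no overlap in either direction. By pathway, 5 of 11 arginine genes, 3 of 5 aromatic genes, 3 of 4 lysine genes, 2 of 4 isoleucine and valine genes and 1 of 3 proline genes fell. Of 5 leucine genes 0 passed, although their median of -1.59 was near that of lysine (-1.77), isoleucine and valine (-1.78) and arginine (-1.47), and 0 of 5 tryptophan and 0 of 4 histidine genes passed, with medians of -0.76 and -0.68. Of the calls, ilv-2, of isoleucine and valine synthesis, had 202, 100.4 and 88.9 CPM in HSAF-60, against 870.4, 806 and 658 CPM in HSAF-0 (log2 fold change -2.58 ± 0.43, adjusted p = 4.25e-04). The arginine genes arg-3, for the large subunit of the arginine-specific carbamoyl phosphate synthetase, and arg-12, for ornithine carbamoyltransferase, had log2 fold changes of -2.52 and -2.33. The aromatic gene aro-6, for the first enzyme of the shikimate path, had 42.2, 30.5 and 19.1 CPM in HSAF-60, against 124, 134 and 156 CPM in HSAF-0 (log2 fold change -2.17 ± 0.38, adjusted p = 5.97e-04), and ilv-6 had -2.13. In all 5 the groups were apart. The call of arg-3 (adjusted p = 0.00959) was lost without A, B, C, J, K or L. Those of arg-12 and ilv-6 were lost without L, while ilv-2 and aro-6 kept theirs without any 1 library. The cross-pathway regulator cpc-1, chosen after its value was seen, had a log2 fold change of -0.29 (adjusted p = 0.502). The count of lower genes ranged from 9 to 20 over the other scalings, was 10 without library J, 7 without A or C, 6 without B or K and 3 without L. DESeq2 called 22. With limma on the deposited FPKM the count was 0, in a setting where the median of all tested genes was 0.45, against 0.0020 in the main fit.

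**Figure D4:**
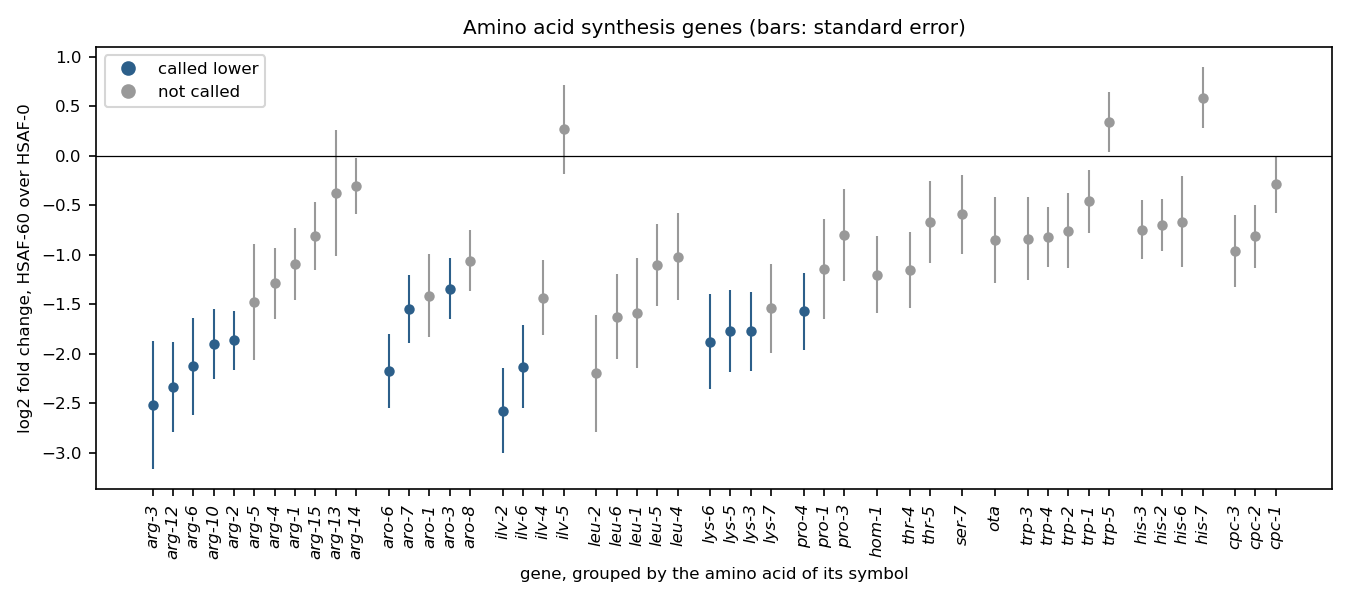
Log2 fold change of HSAF-60 over HSAF-0 (y axis, bars ± 1 standard error of the fit) for the 49 tested amino acid synthesis genes, grouped by the amino acid of the symbol, with the 14 called lower in blue. Most points lie below 0, from -2.58 for ilv-2 to 0.59 for his-7.

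Nitrogen genes moved in both directions. Of 15 members 2 rose and 3 fell, 33.3% of the list against 12.9% of all tested genes, with a median of -1.27. The gene gdh-1, for the glutamate dehydrogenase that uses NAD and mainly breaks glutamate down, had 303, 314 and 390.2 CPM in HSAF-60, against 23.5, 26.7 and 23.2 CPM in HSAF-0. The libraries of each group were close together and the groups far apart (log2 fold change 3.78 ± 0.39, adjusted p = 6.48e-06). The glutamine synthetase gene gln-2 had 3874, 6513 and 4239.8 CPM in HSAF-60, against 1678, 2084 and 2271 CPM in HSAF-0 (log2 fold change 1.28 ± 0.32, adjusted p = 0.00846). Lower were the glutamate synthase gene en(am)-2, with 50.2, 81.1 and 31.7 CPM in HSAF-60, against 465, 325 and 351 CPM in HSAF-0 (log2 fold change -2.81 ± 0.57, adjusted p = 0.00205), and the nitrate reductase gene nit-3, with 10.5, 2.86 and 0.671 CPM in HSAF-60, against 71.7, 50.3 and 32.8 CPM in HSAF-0 (log2 fold change -3.39 ± 0.80, adjusted p = 0.00546). The third is pmg, given above. The calls of gln-2 (without A, B, C, K or L), en(am)-2 (without L) and nit-3 (without A, B, K or L) were lost when 1 library was left out. Of the 7 tested purine synthesis genes 2 fell, 28.6% against 3.53% of all tested genes called lower. They were ad-7 and ad-5, with log2 fold changes of -2.48 and -2.02. All 7 had HSAF-60 libraries below all HSAF-0 libraries, where 51.7% of all tested genes had no overlap in either direction. The median of the list was -1.49. That list was added after the files had been seen, and 0 of its genes were called when any 1 of A, B, C, K and L was left out. Of 25 sulfur and phosphate genes 5 fell and 1 rose, 24% of the list against 12.9% of all tested genes, with a median of -0.63. Among those that fell, met-8, of methionine synthesis, had 282, 167 and 92.9 CPM in HSAF-60, against 1382, 948 and 1391 CPM in HSAF-0 (log2 fold change -2.78 ± 0.45, adjusted p = 3.49e-04), and eth-1, for S-adenosylmethionine synthetase, had 186, 121 and 125 CPM in HSAF-60, against 563, 507 and 641 CPM in HSAF-0 (log2 fold change -1.99 ± 0.36, adjusted p = 8.36e-04). The genes cys-18 and cys-4 had log2 fold changes of -1.88 and -1.73, and the repressible alkaline phosphatase gene pho-2 rose, with a log2 fold change of 2.33. The calls of pho-2 and cys-18 were lost without any 1 of A, B, C, K and L.

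All 13 glycolysis and fermentation genes had HSAF-60 libraries below HSAF-0 libraries, with a median of -1.07. Of all tested genes 51.7% had no overlap between these groups, in either direction. Of the 13, 2 fell (15.4%), where 3.53% of all tested genes were called lower. They were cfp, for pyruvate decarboxylase, with 1407, 1697 and 1400.4 CPM in HSAF-60, against 4809, 5060.1 and 4911 CPM in HSAF-0 (log2 fold change -1.71 ± 0.31, adjusted p = 8.87e-04), and the phosphoglycerate kinase gene pgk, with 1307, 1111 and 875 CPM in HSAF-60, against 2771, 2917 and 2838 CPM in HSAF-0 (log2 fold change -1.37 ± 0.33, adjusted p = 0.00624). Of these 2, pgk lost its call without A, B, C, K or L. Over the other scalings the count was 2 to 6. Of 40 genes of the respiratory chain and ATP synthase edgeR called 0, with 6 at an unadjusted p under 0.05, and DESeq2 called 2 lower. The cytochrome c gene cyc-1 had 64.2, 228 and 311 CPM in HSAF-60, against 606, 899 and 1384 CPM in HSAF-0 (adjusted p = 0.0162). Of 16 genes named tca, tca-3 and tca-7 fell (12.5%), with log2 fold changes of -1.91 and -1.39. This list too was added after the files had been seen. All 5 genes of fatty acid and phospholipid synthesis were lower without overlap, with a median of -1.97. Of these, inl and the fatty acid synthase gene cel-2 (-2.15) passed, 40% of the list against 3.53% of all tested genes called lower. Of the trehalose and glycogen genes, ccg-9, for trehalose synthase, had 55.7, 54.0 and 50.4 CPM in HSAF-60, against 16.7, 14.2 and 14.4 CPM in HSAF-0 (log2 fold change 1.82 ± 0.30, adjusted p = 3.63e-04), and tre-2, a trehalase gene, had 89.6, 70.7 and 78.8 CPM in HSAF-60, against 185, 208 and 201 CPM in HSAF-0 (log2 fold change -1.31 ± 0.29, adjusted p = 0.00377). The plasma membrane proton pump gene pma-1 had 329.9, 149.6 and 105 CPM in HSAF-60, against 1046, 895 and 1025 CPM in HSAF-0. All treated libraries lay below all untreated ones (log2 fold change -2.34 ± 0.46, adjusted p = 0.00164), and the call was lost without K or without L. The calls of cel-2, tca-7 and tre-2 were lost without A, B, C, K or L.

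The 30 proteasome genes included 29 that had a log2 fold change above 0 and 22 with all HSAF-60 libraries above HSAF-0, with a median of 0.75. Of all tested genes 51.7% had no overlap between these groups, in either direction. The test passed 1 (3.33% against 9.38% of all tested genes called higher), with 16 at an unadjusted p under 0.05. It was pcb-6, with 634, 1040.0 and 1238 CPM in HSAF-60, against 268, 359 and 408 CPM in HSAF-0 (log2 fold change 1.49 ± 0.37, adjusted p = 0.00751), which lost its call without any 1 of A, B, C, K and L. This list was also added after the files had been seen. Of 9 ribosomal protein genes edgeR called 0, with 7 at an unadjusted p under 0.05 and 1 called higher and 1 lower by DESeq2, and 8 had HSAF-60 libraries below HSAF-0, with a median of -0.82. The remaining member, the ubiquitin gene ubi, which the list's pattern takes in, had 2147, 2845 and 4145 CPM in HSAF-60, against 1045, 1391 and 1732 CPM in HSAF-0 (adjusted p = 0.0319). Of 12 heat shock genes 3 fell and 0 rose, 25% of the list against 3.53% of all tested genes called lower, with a median of -0.63. They were hsp70-5, with 78.4, 76.0 and 67.9 CPM in HSAF-60, against 289, 229 and 367 CPM in HSAF-0 (log2 fold change -1.99 ± 0.35, adjusted p = 7.27e-04), hsp70-2 (-1.40) and hsp88 (-1.10). The vacuolar protease gene pep4 had 3049.5, 5063 and 6248 CPM in HSAF-60, against 1177, 1633 and 1858 CPM in HSAF-0 (log2 fold change 1.62 ± 0.40, adjusted p = 0.007). It was the 1 of 16 vacuolar genes called (6.25%, against 12.9% of all tested genes), and its call, like that of hsp88, was lost without A, B, C, K or L. That of hsp70-2 was lost without any 1 of the 6 libraries. Neither autophagy gene with a symbol passed by edgeR, with 1 at an unadjusted p under 0.05, and DESeq2 called 1. The ubiquitin-like autophagy gene atg-8 had 897, 1653 and 1887 CPM in HSAF-60, against 589, 682 and 661 CPM in HSAF-0 (adjusted p = 0.0334), and the genes NCU01955 (atg3), NCU04662 (atg5) and NCU10049 (atg12) had log2 fold changes of 0.53, 0.33 and 1.37 with adjusted p of 0.202, 0.626 and 0.0866. For the endoplasmic reticulum, the calcium pump gene nca-1 had 203, 162 and 188 CPM in HSAF-60, against 101, 77.0 and 81.6 CPM in HSAF-0 (adjusted p = 0.0213) and the chaperone gene grp78 had 1586, 1620.5 and 1568 CPM in HSAF-60, against 776, 835 and 913 CPM in HSAF-0 (adjusted p = 0.0401). Both had HSAF-60 libraries above all HSAF-0 libraries and did not pass by edgeR. Of the 4 genes of that list 2 had an unadjusted p under 0.05, and DESeq2 called 1, nca-1.

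Of 24 actin, tubulin and motor genes 2 rose and 2 fell, 16.7% of the list and near the 12.9% called over all tested genes. The actin-bundling fimbrin gene fim had 305, 466 and 861 CPM in HSAF-60, against 102, 116 and 123 CPM in HSAF-0 (log2 fold change 2.26 ± 0.39, adjusted p = 6.18e-04), and ro-10, of the ropy genes that serve dynein and its cofactor dynactin, had a log2 fold change of 1.68. The beta-tubulin gene Bml had 194, 131 and 148 CPM in HSAF-60, against 409.6, 374 and 391 CPM in HSAF-0 (log2 fold change -1.31 ± 0.31, adjusted p = 0.00563), and the alpha-tubulin gene tba-1 had 191, 114 and 105 CPM in HSAF-60, against 399, 447 and 428 CPM in HSAF-0 (log2 fold change -1.63 ± 0.33, adjusted p = 0.00207). Of 26 genes of polar growth and septation the 1 that rose was mob-1, a coactivator of NDR kinases (1.61), and of 13 cell fusion genes it was ham-10 (2.34). These were 3.85% and 7.69% of the lists, against 9.38% of all tested genes called higher. The Golgi calcium and manganese pump gene pmr-1 rose (1.38), the 1 call among 13 calcium genes (7.69%, against 9.38% of all tested genes called higher). Without A, B, C, K or L the calls of ro-10, Bml, mob-1 and pmr-1 were lost, and without B, K or L that of tba-1.

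Of 33 tested transcription factor genes with a symbol 2 rose and 1 fell, 9.09% against 12.9% of all tested genes, with a median of -0.22. They were tcu-2 (1.27, lost without A, C, K or L), tcu-3 (1.34, lost without any 1 of the 6 libraries) and sah-2 (-1.91, kept without any 1 library). The genes that follow come from several other lists. The opsin gene nop-1 had 133, 98.7 and 188 CPM in HSAF-60, against 4.5, 6.41 and 5.96 CPM in HSAF-0 (log2 fold change 4.61 ± 0.47, adjusted p = 5.84e-06). The gene ric8, for an exchange factor of G protein alpha subunits, had 67.7, 228 and 329.7 CPM in HSAF-60, against 12.2, 16.3 and 14.1 CPM in HSAF-0 (log2 fold change 3.87 ± 0.52, adjusted p = 6.11e-05), the 1 call among 19 G protein and cyclic AMP genes. This was 5.26% of that list against 12.9% of all tested genes. The median of the list was -0.54, with 13 of the 19 below 0. The Grainyhead-type transcription factor gene csp-2, known for the separation of conidia, had 95.6, 201 and 258 CPM in HSAF-60, against 28.9, 40.7 and 28.0 CPM in HSAF-0 (log2 fold change 2.5 ± 0.38, adjusted p = 2.22e-04). The transcription factor genes vib-1, known from incompatibility between strains, and Asm-1, known from sexual development, had log2 fold changes of -2.28 and -1.57, and tol, also of incompatibility, had 1.92. Both nop-1 and csp-2 lay within a list of 22 light and clock genes of which 2 rose and 0 fell, with a median of 0.29. This was 9.09% of the list, near the 9.38% of all tested genes called higher. The list of ergosterol and sphingolipid genes had 1 call among 4 (25%, against 12.9% of all tested genes), sre (1.83), which in Neurospora is known as a regulator of iron uptake and not of sterols. Of the 4 genes 3 had a log2 fold change below 0, with a median of -0.60. Of 6 carotenoid genes al-3, for the geranylgeranyl diphosphate synthase, rose (1.78), and al-1 and ylo-1, for later steps, fell (-1.92 and -1.69), 50% of the list against 12.9% of all tested genes. Of 12 antioxidant genes the catalase-peroxidase gene cat-2 rose (1.74, adjusted p = 0.00987, a call lost without any 1 of A, B, C, I, J, K and L) and the glutathione transferase gene gst-4 fell, with 10.2, 10.2 and 5.75 CPM in HSAF-60, against 34.7, 57.0 and 67.2 CPM in HSAF-0 (log2 fold change -2.61 ± 0.49, adjusted p = 0.00111). These calls were 16.7% of the list, near the 12.9% called over all tested genes, and the median of the list was -0.28. Sexual development genes had 3 of 22 that rose and 1, Asm-1, that fell, 18.2% of the list against 12.9% of all tested genes. Those that rose were the perithecial protein gene app (3.79, lost without B, C or J), the polyketide synthase gene pks-2 (2.41, lost without B, C, K or L) and fmf-1 (2.10, lost without B or C). The calls of tol and Asm-1 were lost without A, B, C, K or L, that of al-3 without A, B, C or L, that of al-1 without A, B, C, K or L, that of ylo-1 without B, K or L, and that of vib-1 without K or L, while nop-1, ric8, csp-2, sre and gst-4 kept theirs. Of the marker sums of cell types, the conidial one did not overlap between the groups, and the sexual and vegetative ones did. The 8 conidial markers summed to 469, 641 and 713 TPM in HSAF-60, against 276, 199 and 225 TPM in HSAF-0, most of it al-2, which was not called (adjusted p = 0.0829), while al-1 fell and con-6 and con-13 were at or near 0. The 6 sexual markers summed to 274, 97.6 and 78.3 TPM in HSAF-60 and to 222, 192 and 69.3 TPM in HSAF-0. In every library asd-1, which was not called, was the largest of them, while app rose. The 5 vegetative markers summed to 4897, 4233 and 4078 TPM in HSAF-60 and to 4231, 5011 and 4571 TPM in HSAF-0. Most of that was hex-1 and act, neither of them called (-0.27 and 0.55), while pma-1 and tba-1 fell (-2.34 and -1.63) and cot-1 was not called (-1.10). In bulk RNA, fewer cells of a type and less RNA per cell cannot be told apart, and the part of these cell types in the results was not tested.

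On the per-length TPM scale, 14 genes were among the 20 most abundant of both groups. The 20 highest held 23.9% of the transcripts in HSAF-60 and 24% in HSAF-0, and the 100 highest held 50.4% in HSAF-60 and 57.7% in HSAF-0. At the top of HSAF-60 stood the clock-controlled gene ccg-16, with 43381, 65672 and 80695 TPM in HSAF-60, against 7985, 13850 and 9433 TPM in HSAF-0 (log2 fold change 2.49 ± 0.54, adjusted p = 0.00299). Of the 20 highest in HSAF-60, 4 were called higher (ccg-16, NCU00868, NCU02084 and NCU06660, the last named after its value was seen) and 0 lower. The call of ccg-16 was lost without A, C or L. Others near the top had lower means without a call, among them nmt-1, of thiamine synthesis, with 12102 ± 5719 TPM in HSAF-60 and 25063 ± 1307 TPM in HSAF-0, and the elongation factor gene tef-1, with 5268 ± 1896 TPM in HSAF-60 and 10051 ± 1462 TPM in HSAF-0 (SD, n = 3 each). The wall protein gene ncw-3 had 10121 ± 2180 TPM in HSAF-60 and 3974 ± 1402 TPM in HSAF-0 (adjusted p = 0.0279).

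The state at 60 min was not that at 30 min. The same fit called 2059 genes (27.2%) against HSAF-30, of which 1014 were higher (13.4%) and 1045 lower (13.8%) at 60 min, and 48.4% of all tested genes had no overlap between these groups. Against HSAF-5 it called 1371 (18.1%), of which 656 were higher (8.65%) and 715 lower (9.43%). Given side by side, HSAF-30 against HSAF-0 called 2602 genes (34.3%), 1449 higher (19.1%) and 1153 lower (15.2%), and HSAF-5 against HSAF-0 called 909 (12%), 737 higher (9.72%) and 172 lower (2.27%). These comparisons share libraries, so no overlap between them is given. Among the 6 tested chitin synthesis genes 4 had fallen below their 30 min level, where 13.8% of all tested genes were called lower, and the median over the list was -1.25. The gene chs-3 was lower than at 30 min by a log2 fold change of -1.90 (adjusted p = 1.5e-04) and chs-1 by -1.11, while both stayed above HSAF-0. With limma on the deposited FPKM the chs-1 difference from HSAF-30 had the other sign, at 0.15 to 0.16. In those 3 forms the median over all tested genes was 0.88, 1.35 and 0.52, against 0.095 in the main fit. The chs-1 difference was not called without G, J, K or L. The genes gh18-5 and gdh-1 were likewise below HSAF-30 (-2.67 and -2.95) and above HSAF-0. Of the 23 MAP kinase genes 8 were lower and 1 higher than at 30 min, and of the 18 wall proteins 8 lower and 3 higher. Of the 12 antioxidant genes 6 were higher and 2 lower. Over all tested genes 13.8% were called lower and 13.4% higher in this comparison. How these counts per list depend on single libraries or on the scaling was not tested.

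A smaller set stood outside both HSAF-0 and HSAF-30 at 60 min. By the rule for such genes, NCU06400, NCU01849, NCU05788 and NCU10040 were among the 5 most raised, with log2 fold changes over HSAF-30 of 6.51, 4.6, 8.41 and 4.52, and over HSAF-0 of 7.27, 6.86, 5.53 and 5.85. The 5 also included ric8, at 4.80 over HSAF-30 and 3.87 over HSAF-0. Outside the 5, nop-1 was 3.33 over HSAF-30. The most lowered were pmg, acw-6, NCU08397, NCU08535 and NCU04583, annotated as an N-acetyltransferase, with log2 fold changes against HSAF-30 of -4.24, -3.56, -2.65, -4.31 and -3.12. Against HSAF-0, NCU08535 was not called without A, B, J, K or L, and NCU04583 not without L. Against HSAF-30, NCU08397 was not called without H, K or L. The amino acid genes had 14 lower and 3 higher than HSAF-30, with a median of -0.60. Of all tested genes 13.8% were called lower and 13.4% higher in that comparison. For this list HSAF-30 against HSAF-0 gave a median of -0.45 and HSAF-5 against HSAF-0 one of 0.025.

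**Figure D5:**
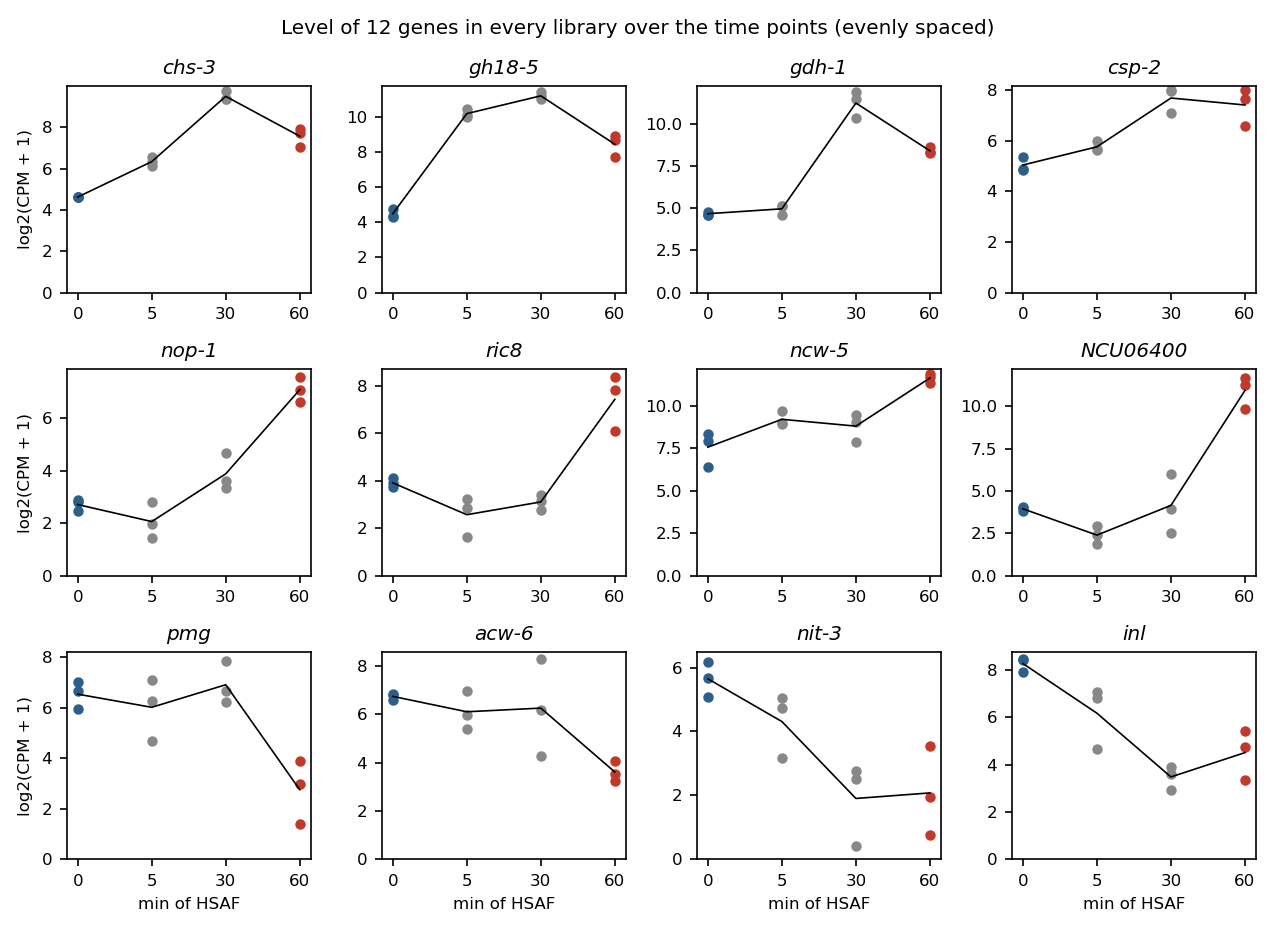
Each panel gives log2(CPM + 1) of 1 gene in every library (points) at 0, 5, 30 and 60 min of HSAF on an evenly spaced axis, with HSAF-60 in red, HSAF-0 in blue and a line through the group means. In chs-3, gh18-5 and gdh-1 the 60 min points lie below those at 30 min and above those at 0 min, while nop-1, ric8, ncw-5 and NCU06400 are highest and pmg and acw-6 lowest at 60 min.

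Called genes also lay side by side in the genome. In the order of the NC12 annotation, 19 runs of at least 3 neighbouring genes were called higher, with 60 genes in all, and 2 runs of 7 genes in all were called lower. The longest, of 5 genes, ran from NCU10246 to NCU10392. NCU00855 stood in a run with NCU00854 and NCU00853, acw-4 (NCU09263) in one with NCU09262 and NCU09261, NCU00868 in a run with NCU00869 and NCU00870, and gh18-5 (NCU04554) in a run with NCU04555 and NCU04556. How often such runs arise by position alone was not tested. Whether the counting used the strand is not given in the sources used here, so reads of neighbours that overlap cannot be told apart.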

How the data were processed

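The 12 RNA-seq libraries of Neurospora crassa mycelium were made after 0, 5, 30 and 60 min with HSAF, 3 for each time. The authors trimmed the reads with Trimmomatic and deposited raw read counts per feature, and FPKM values that they computed from them. What aligner, counter, strand setting and genome build they used is not stated in the labels or methods read for this work. The main fit used NCU genes alone, and the 1680 newGene features were left out of its library sizes and tests. They entered an alternative scaling, TMM on all deposited features, and were tested in a separate fit given further below.

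Counts were filtered with filterByExpr (minimum count 10), scaled by TMM and fitted with edgeR 4.0.16 (glmQLFit, glmQLFTest; R 4.3.3) with 1 term per time point over all 12 libraries. P-values were adjusted by the Benjamini-Hochberg method, and a call needed an adjusted p below 0.01 and a 2-fold change. Standard errors are the absolute log2 fold change divided by the square root of F. TPM was computed from the deposited FPKM by scaling the NCU genes of each library to the same sum. Alternatives used DESeq2 1.42.0, limma 3.58.1 on log2(FPKM + 1) (FPKM of at least 1 in 3 libraries), other scalings, thresholds and libraries. The edgeR script was tested on simulated data. Symbols came from RefSeq's table for assembly NC12, in which all 9729 NCU identifiers matched.

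The genes, lists and groups described were chosen with earlier results of these data known. Genes were named if they were among the 10 largest changes in each direction (average log2 CPM of at least 5, groups apart), the called members of a list (at most 5, or the 2 most changed where 0 were called), named in the text of the paper, among the 5 most extreme outside both HSAF-0 and HSAF-30, or among the 20 most abundant with a symbol. The text gives part of these. Intervals of counting error are not given, since the spread between libraries sets the precision. Promoter sequences were not used here.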

Additional observations from a re-analysis of the deposited data

Results flagged for a closer look

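The gene tca-7, a tricarboxylic acid cycle gene of the list added after the files had been seen, moved in opposite directions in the earlier and the later part of the hour. At 60 min its level against HSAF-30 gave a log2 fold change of -2.81, while HSAF-30 against HSAF-0 gave 1.43. Both comparisons share the HSAF-30 libraries, and the difference between the 2 changes was not tested.

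Features named newGene, which lie outside the annotated NCU genes and were not tested in the comparisons above, also differed. Of 638 tested in a fit scaled by the library sizes of the NCU genes, 64 were called higher and 4 lower in HSAF-60 than in HSAF-0 (10.7% called). One of them, newGene_812, had 86.6, 280.4 and 519 CPM in HSAF-60, against 1.29, 1.39 and 1.76 CPM in HSAF-0. The files do not say what these features encode.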

How the results depend on the processing

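For HSAF-60 against HSAF-0 (979 genes called, 711 higher and 268 lower), a fit to the 2 groups compared alone called 1507 genes with 527 lower, DESeq2 on those groups (an alternative chosen after seeing the data) 1822 with 1140 higher and 682 lower, DESeq2 on all libraries 474 lower, upper quartile scaling 452 lower, an adjusted p below 0.05 with no fold limit 1838 with 1157 higher and 681 lower, and a test against a 1.5-fold change 621 with 139 lower. On FPKM, limma called 385 (366 higher, 19 lower), with a pseudocount of 0.1 it called 316 (302 and 14) and with no filter 230 (222 and 8). These forms put the median of all tested genes at 0.45, 0.60 and 0.25. On TPM limma called 1011 (782 and 229), with a median of 0.12. Leaving out 1 library in turn gave 508 to 1205 calls, 388 to 802 higher and 84 to 403 lower. The cause of these shifts was not tested.

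For HSAF-60 against HSAF-30 (2059 called, 1014 higher and 1045 lower), the 2 groups alone gave 1246 (566 and 680), library size scaling 1539 higher, limma on FPKM 762 with 29 lower, with a pseudocount of 0.1 726 with 13 lower and with no filter 461 (451 and 10), limma on TPM 1611 higher and 693 lower, and the looser threshold 3212 with 1677 higher. For HSAF-60 against HSAF-5 (1371 called, 656 higher and 715 lower), library size scaling gave 1526 higher and 359 lower, limma on FPKM 687 with 20 lower, with a pseudocount of 0.1 497 with 14 lower and with no filter 444 with 1 lower, limma on TPM 1418 higher and 325 lower, the looser threshold 2511 (1238 and 1273) and the test against a 1.5-fold change 838 (405 and 433). Leaving out 1 library in turn gave 762 to 1709 calls, 360 to 768 higher and 402 to 941 lower for this comparison.

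Of the 102 named genes called against HSAF-0, 49 were called under every setting that used counts and 21 under every setting tried. Signs turned in 7 genes, of which 5 turned against HSAF-0, where those 5 were not called. There, acr-2 (NCU05733) gave 0.14 with library size scaling, 0.019 with the 2 groups alone, 0.35, 0.58 and 0.35 with limma on FPKM at pseudocounts of 1 and 0.1 and with no filter, 0.15 on TPM and -0.23 to 0.21 without 1 library. By limma on FPKM, nor-1 (NCU07850) gave 0.36, 0.41 and 0.36, ubi::crp-6 (NCU04553) 0.17 in each form, and qa-1F (NCU06028) 0.020 with no filter. NCU02592 gave -0.089 to 0.54 without 1 library. Against HSAF-30, chs-1 (NCU03611) gave 0.15, 0.16 and 0.15 by limma on FPKM, and vel (NCU00406) 0.11 at a pseudocount of 0.1.

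No paired analysis was possible because the labels letter each library and give groups no number in common. The depth on NCU genes limits what can be said of genes with few counts. It was lowest in library I of HSAF-30, at 790513 counts, which is part of the fit and of every comparison with HSAF-30. Among the HSAF-60 and HSAF-0 libraries it was lowest in the untreated library A, at 2586940 counts. In genes with no counts in HSAF-0 the fold is a bound alone.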

Other observations

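Of 32 genes for DNA repair and replication 1 rose and 1 fell (6.25%, against 12.9% of all tested genes), with 12 at an unadjusted p below 0.05 and a median of 0.27. The gene mus-43, of nucleotide excision repair, had a log2 fold change of 1.79 (adjusted p = 0.00819) and was not called without A, B, C, K or L, and poli fell, with 4.85, 1.64 and 4.12 CPM in HSAF-60, against 27.3, 21.7 and 16.3 CPM in HSAF-0 (log2 fold change -2.56 ± 0.52, adjusted p = 0.00184, not called without A or K). Of 69 genes listed for plant cell wall degradation and its regulators 6 rose and 2 fell (11.6%), with a median of 0.069 against 0.0020 over all tested genes. Among the named ones that rose, gh18-5 and gh76-3 belong to families that cut chitin and mannans and are given above with the fungal wall, while gh47-2, gh13-6 and gh31-1 belong to families of mannosidases and of enzymes that act on starch-type glucans. Of these, gh47-2 had 7.65, 14.5 and 27.7 CPM in HSAF-60, against 0.643, 2.51 and 2.65 CPM in HSAF-0 (log2 fold change 2.98 ± 0.60, adjusted p = 0.00185, not called without A or L).

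In the mitochondrial import list, added after the files had been seen, 2 of 23 fell, the inner membrane translocase genes tim17 (-1.57) and tim50 (-1.06), both not called when any 1 of A, B, C, K and L was left out, and tim50 not without J either. This was 8.70% of the list against 3.53% of all tested genes called lower. Of the 23 genes 17 had a log2 fold change below 0, 12 had all HSAF-60 libraries below all HSAF-0 libraries and 12 had an unadjusted p below 0.05, with a median of -0.52. Of all tested genes 51.7% had no overlap between these groups, in either direction. Of 23 genes of peroxisomes and the Woronin body, which plugs septal pores, pex31 rose (2.54, not called without C), 4.35% of the list against 9.38% of all tested genes called higher. Of the 5 genes of the quinic acid cluster, by which Neurospora uses quinate as a carbon source, edgeR called 0 against HSAF-0, with 0 at an unadjusted p below 0.05 and 0 by DESeq2. Against HSAF-30, 3 of the 5 were higher, where 13.4% of all tested genes were called higher. Of these, qa-2 had 61, 17 and 12 counts in HSAF-60 and 0, 0 and 0 counts in HSAF-30, at least 13.1-fold higher against a floor of 3 counts over HSAF-30 (adjusted p = 0.00398). Without J, a setting added after the values were seen, the bound was 8.26-fold, and the call was lost without G, H, J or K.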
